A study of Mus musculus with 4 samples.

Results

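Albumin and 9 other carrier and inhibitor proteins that hepatocytes secrete into plasma were followed in regenerating mouse liver. The genes were chosen by name: Alb, Ttr, Rbp4, Trf, Gc, Ahsg, Fetub, Ambp, Itih1 and Itih4. Every probe set (a group of short probes that reads 1 transcript) whose only annotated gene symbol equals one of these names was taken. This gave 11 probe sets for 8 of the 10 genes, among 18193 genes named on the array. No value is given for Trf, whose probe set carries the symbols of several genes, or for Gc, for which no probe set was named in the annotation used here.

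The livers were those of nude mice of the BALB/c nu/nu strain, in which mature T cells are missing. All mice had received carbon tetrachloride, a toxin that damages hepatocytes and causes fibrosis on repeated dosing, at 0.25 ml/kg for 23 injections. They were given 1000000 human bone marrow mesenchymal stem cells into the spleen. Part of the liver was removed on day 21, and the regenerating remainder was sampled 8 days later. The EGFP group (2 arrays) received cells that expressed the fluorescent protein EGFP, and the OGFRL1 group (2 arrays) received cells that expressed OGFRL1, a protein related to the opioid growth factor receptor. Neither sex nor age is labelled, and nothing ties the 2 arrays of each group to different animals, so any p-value measures only the spread between these arrays, which may be technical. The labels also hold a sentence fragment that mentions albumin in buffered saline in the days before the last carbon tetrachloride injection, without saying which mice received it. The arrays read mRNA in mouse liver, not protein in plasma. They carry mouse probes, so the human cells were not measured as such.

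Hepatocytes make most of the proteins that circulate in plasma. Albumin carries fatty acids, bilirubin and drugs and sets the oncotic pressure of blood. Transthyretin and the retinol-binding protein travel as a complex that carries vitamin A, and the fetuins bind calcium phosphate or inhibit proteases. The inter-alpha-trypsin inhibitors consist of heavy chains joined to bikunin, a protease inhibitor, and stabilise matrix rich in hyaluronan. In injured liver the transcripts of albumin and transthyretin are known as negative acute phase transcripts, which decline in inflammation.

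Promoter sequence of these genes is given beside their values, and any part of it in those values was not tested. RefSeq (GRCm38.p6) gave windows for 7 of the 8 measured genes, or 9 windows in all as Fetub and Rbp4 have a pair each; the window of Ttr was not used here. In the 250 bases before each annotated start, motifs were searched on both strands, and results are given for 5 of them, so a gene not named with a motif below, Alb included, may hold one that is not given. TATAAA, the TATA box, was in 1 window each of Fetub and Rbp4 and in 12.4% of all 32851 windows of this length. TGTTTAC, a FOXA motif, was in the other window of each of these genes and in 3.17% of all windows. CAAAGTCCA (HNF4), TTGCGCAA and TTGCGAAA (both C/EBP) were in none of the 9 windows and in 0.384%, 0.164% and 0.143% of all. The TATAAA windows are printed for the last 150 bases before the start, 5′ to 3′ on the strand of the gene, with the motif in capitals. A match is a description of letters, not a site shown to be bound.
Fetub, chr16:22918232-22918381, plus strand: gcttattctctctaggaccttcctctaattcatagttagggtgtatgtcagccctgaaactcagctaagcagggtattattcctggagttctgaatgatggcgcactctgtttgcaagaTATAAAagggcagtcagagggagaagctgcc
Rbp4, chr19:38124812-38124961, minus strand: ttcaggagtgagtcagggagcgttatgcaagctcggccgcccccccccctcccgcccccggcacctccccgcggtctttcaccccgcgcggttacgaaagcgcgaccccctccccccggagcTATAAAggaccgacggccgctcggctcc

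All 8 measured genes had lower mean values in OGFRL1 than in EGFP livers, with a median log2 fold change (OGFRL1 minus EGFP) of -0.55 and a range from -0.71 for Alb to -0.23 for Fetub. None passed the threshold of the test over all genes (limma, Benjamini-Hochberg adjusted p from 0.17 to 0.622, threshold 0.05), while 0.511% of the 11942 genes tested did. When all probe sets were fitted in place of 1 per gene, none of the 11 passed, against 0.336% of 20238. At an unadjusted p under 0.05, 7 of the 8 were lower, against 6.28% of all genes. In 7 of the 8 both OGFRL1 arrays lay below both EGFP arrays, as did 20.5% of all genes. Over all genes tested the median log2 fold change was 0.04, and 44.4% were below 0. In bulk tissue, fewer hepatocytes and less of a transcript per hepatocyte cannot be told apart.

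Among the carriers, Alb (chr5:90460870-90476602 in GRCm38.p6) had deposited signals of 16107 and 9313 in the EGFP group (arrays EGFP 1 and EGFP 2, in this order throughout) and of 7041 and 7930.4 in the OGFRL1 group (OGFRL1 1 and OGFRL1 2). The groups did not overlap, but EGFP 1 stood apart: it was 1.73 times EGFP 2. The log2 fold change was -0.71 ± 0.26 (SE), with a limma adjusted p of 0.271 and an unadjusted 95% interval from -1.34 to -0.08.

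Ttr, the carrier of thyroxine and partner of the retinol-binding protein, is read by 4 probe sets. The brightest had signals of 16398 and 10119 on the EGFP arrays and of 7593 and 8935 on the OGFRL1 arrays, so that EGFP 1 again lay far above the other 3 arrays. Its log2 fold change was -0.64 ± 0.25 (limma adjusted p = 0.285). Over the 4 probe sets the log2 fold change ran from -0.67 to -0.46, and the ratio of EGFP 1 to EGFP 2 from 1.23 to 1.62. The probe set with the least excess on EGFP 1 was also the one with the smallest difference between the groups. Without EGFP 1 the 4 lay between -0.32 and -0.30. These probe sets share a transcript and are not replicates.

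Rbp4, which carries retinol out of the liver, had signals of 12168 and 8675 in the EGFP group and of 6663 and 7282 in the OGFRL1 group. The order of the arrays was that of Alb, with EGFP 1 at 1.40 times EGFP 2. The log2 fold change was -0.56 ± 0.19 (limma adjusted p = 0.245).

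The fetuin genes Ahsg and Fetub are neighbours on chromosome 16 (22892015-22899451 and 22918382-22939768) and did not share a pattern. Ahsg, a plasma inhibitor of calcification, had signals of 13446 and 9723 in the EGFP group and of 7489 and 8288 in the OGFRL1 group, with a log2 fold change of -0.54 ± 0.19 (limma adjusted p = 0.258). Fetub, an inhibitor of astacin proteases, had 3001 and 2427 against 2616 and 2035. For Fetub the groups overlapped, since OGFRL1 1 lay above EGFP 2, and its log2 fold change was -0.23 ± 0.18 (limma adjusted p = 0.622). Whether the fold changes of these neighbours differ was not tested.

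Of the inter-alpha-trypsin inhibitor genes, Ambp encodes bikunin together with the carrier alpha-1-microglobulin, and Itih1 and Itih4, close to each other on chromosome 14 (30929180-30943289 and 30886476-30901986), encode members of the heavy chain family. Ambp had signals of 12702 and 8236 in the EGFP group and of 6122 and 6975.5 in the OGFRL1 group (log2 fold change -0.65 ± 0.23, limma adjusted p = 0.247). EGFP 1 was 1.54 times EGFP 2, a ratio between those of Rbp4 and Ttr. Itih4 had 8772 and 7272 against 5503 and 5755 (-0.50 ± 0.15, limma adjusted p = 0.202). Itih1 had 2225 and 2137.5 against 1559 and 1612 (-0.46 ± 0.13, limma adjusted p = 0.17). Itih1 was the dimmest of the 8 genes and the only one whose EGFP arrays lay within 1.04 times of each other, so that the gap between its groups was far wider than the gap within them.

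**Figure D1:**
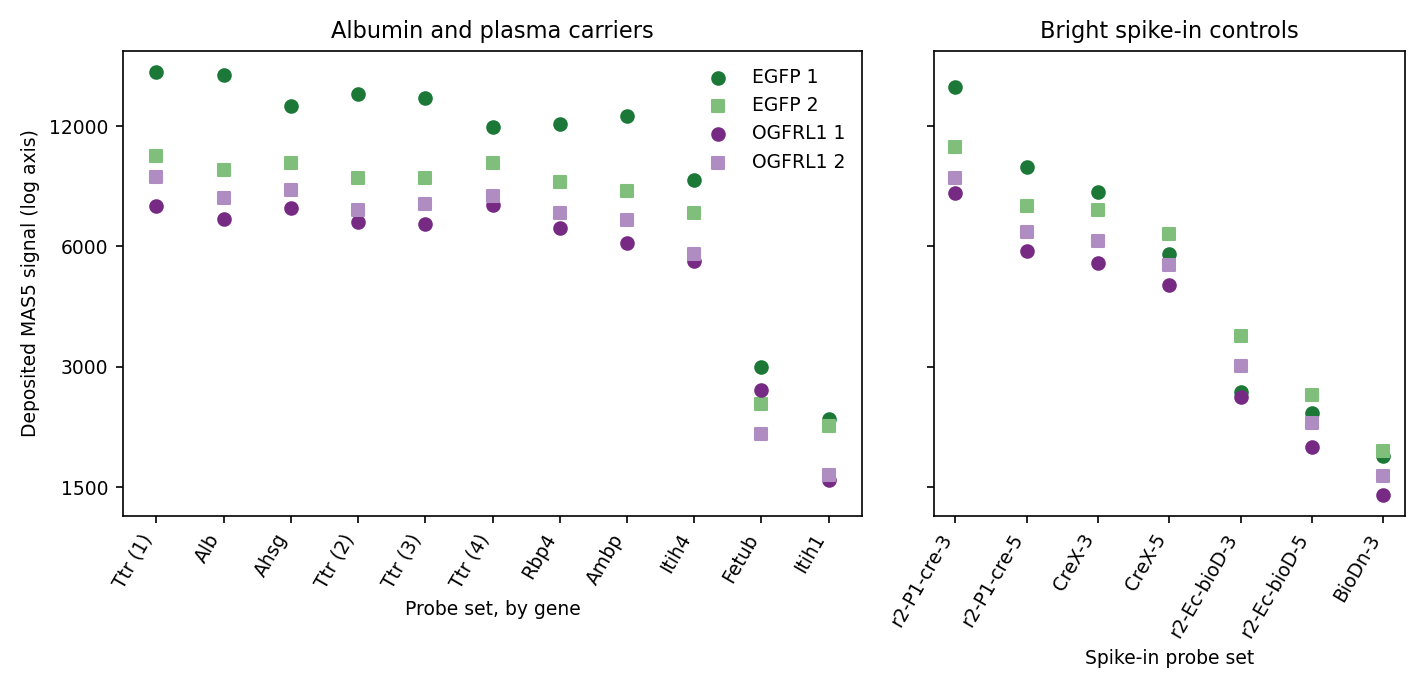
Deposited signals (log axis) of the 11 probe sets of the carrier genes (left) and of the 7 brightest spike-in probe sets (right), 1 point per array; no error bars are drawn as every array is shown. EGFP 1 was the highest array for all 11 carrier probe sets and OGFRL1 1 the lowest for 10 of them, and the brightest Cre spike-in showed the same order.

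The spike-in controls BioB, BioC, BioD and Cre are bacterial and phage transcripts meant to be added to each array in equal amount; the amounts used here are not given in the labels. All 18 of their probe sets were lower in the OGFRL1 group, 15 of them without overlap, with log2 fold changes from -0.72 to -0.03. Probe sets of the same control share a transcript and are not replicates. The 4 Cre probe sets, of which only the brightest reaches the mean signal of Alb (10098), had a mean of -0.43. The BioB, BioC and BioD group, 14 probe sets of lower brightness, had a mean of -0.32. The brightest Cre probe set had signals of 15002, 10655, 8155 and 8894 on EGFP 1, EGFP 2, OGFRL1 1 and OGFRL1 2, a log2 difference of -0.57. Its arrays stood in the same order as those of Alb, and EGFP 1 was 1.41 times EGFP 2. The other Cre probe sets did not share this excess to the same degree, with ratios of 1.25, 1.11 and 0.891. These ratios fell with brightness, at mean signals of 7341, 6818 and 5600, beside 10677 for the brightest Cre probe set.

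Brightness and difference went together over the array. Genes with a mean signal of at least 5000 numbered 134, of which 128 were below 0, with a median log2 fold change of -0.43. The median was -0.13 for the 978 genes between 1000 and 5000, 0.04 for the 5203 between 100 and 1000, and 0.09 for the 5627 dimmer ones. Of the 8 carrier genes, 6 fell in the brightest class, and 8 of its 134 genes had a lower log2 fold change than Alb. The highest signal of any probe set was 18145 on EGFP 1, 12630.0 on EGFP 2, 9881 on OGFRL1 1 and 10641 on OGFRL1 2. Signals over 10000 were found for 78 probe sets on EGFP 1, 19 on EGFP 2, 0 on OGFRL1 1 and 1 on OGFRL1 2, so the top of the scale itself differed between arrays. What part this had in the values of the carriers was not tested.

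**Figure D2:**
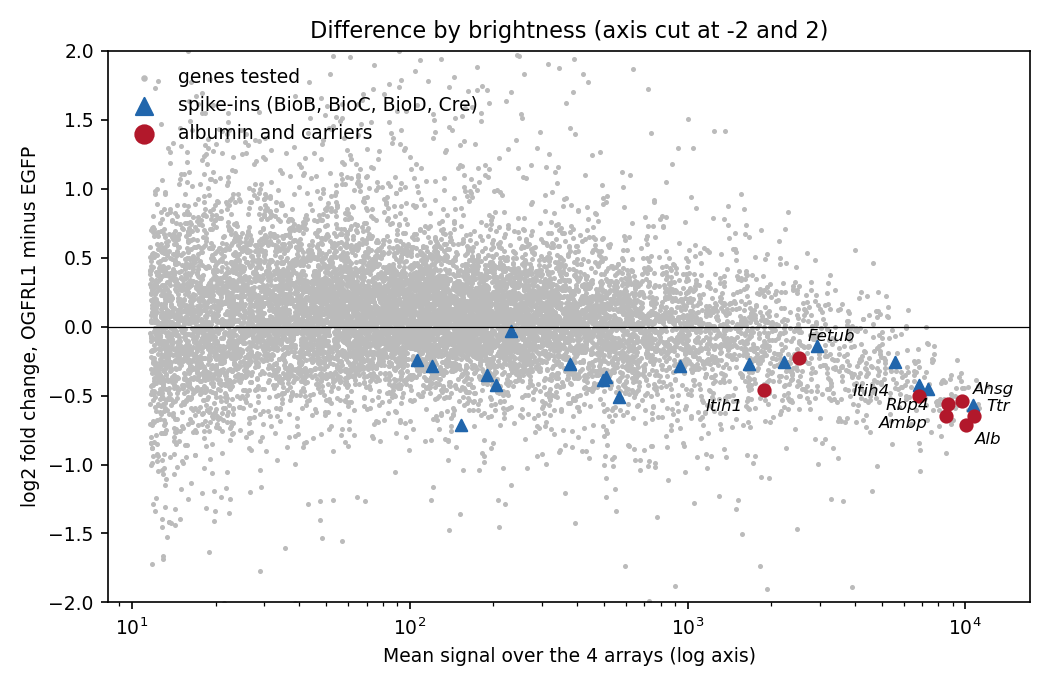
Log2 fold change (OGFRL1 minus EGFP) against the mean signal over the 4 arrays (log axis) for the 11942 genes tested (grey), the 18 spike-in probe sets (blue triangles) and the 8 carrier genes (red); points beyond -2 and 2 are outside the axis. The 6 bright carriers lie between -0.71 and -0.50, below the Cre mean of -0.43; Alb, Ambp and Ttr lie below the lowest Cre probe set, at -0.57.

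Each carrier was therefore set against the 4 spike-in probe sets nearest to it in brightness, by subtracting their mean log2 value on each array. For 6 of the 8 genes these were the 4 Cre probe sets. Relative to them Alb was at 0.83 on EGFP 1, 0.24 on EGFP 2, 0.24 on OGFRL1 1 and 0.26 on OGFRL1 2, on the log2 scale. EGFP 2 thus lay with the OGFRL1 arrays, and EGFP 1 alone was higher. Ttr showed the same picture, with 0.86, 0.36, 0.35 and 0.43. Ahsg was at 0.57, 0.30, 0.33 and 0.32, and Rbp4 at 0.43, 0.14, 0.17 and 0.13. Ambp was at 0.49, 0.06, 0.04 and 0.07. In each of these 5 genes the groups overlapped once the spike-ins were subtracted.

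The group difference relative to the spike-ins had a median of -0.18 over the 8 genes, from -0.29 for Alb to 0.006 for Fetub, and 7 of 8 were below 0. Without EGFP 1 the median was 0.009, with 3 of 8 below 0. Among the 134 genes with a mean signal of at least 5000 the same measure had a median of -0.009, with 53.7% below 0, and without EGFP 1 a median of 0.04, with 32.8% below 0. With 2 arrays against 2 an exact 2-sided permutation test cannot give a p below 0.333, so these relative values are a description. The spike-ins were on average 0.39 dimmer than Alb on the log2 scale and 0.50 dimmer than Ttr, so the match in brightness was incomplete for the brightest genes. Against the brightest Cre probe set alone, a choice made after the data were seen, Alb differed by -0.14 and Ttr by -0.08.

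Itih1 was the only one of the 8 genes whose groups did not overlap after the spike-ins were subtracted, as in 3.51% of the 6129 genes at least as bright as the dimmest spike-in. The 4 spike-ins nearest to Itih1 were all BioD probe sets, not the Cre probe sets used for the bright carriers. Centred on Cre instead, Itih1 differed by -0.03. Its relative values were 0.28 and 0.07 in the EGFP group and 0.04 and -0.13 in the OGFRL1 group, a difference of -0.22 (exact permutation p = 0.333, the smallest possible). The gap between EGFP 2 and OGFRL1 1 was thus small. Itih4 was at -0.04 and -0.11 against -0.11 and -0.21, with overlap by a narrow margin. Fetub was at 0.10 and -0.41 against 0.13 and -0.43, where the arrays numbered 1 were high and those numbered 2 low in both groups.

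**Figure D3:**
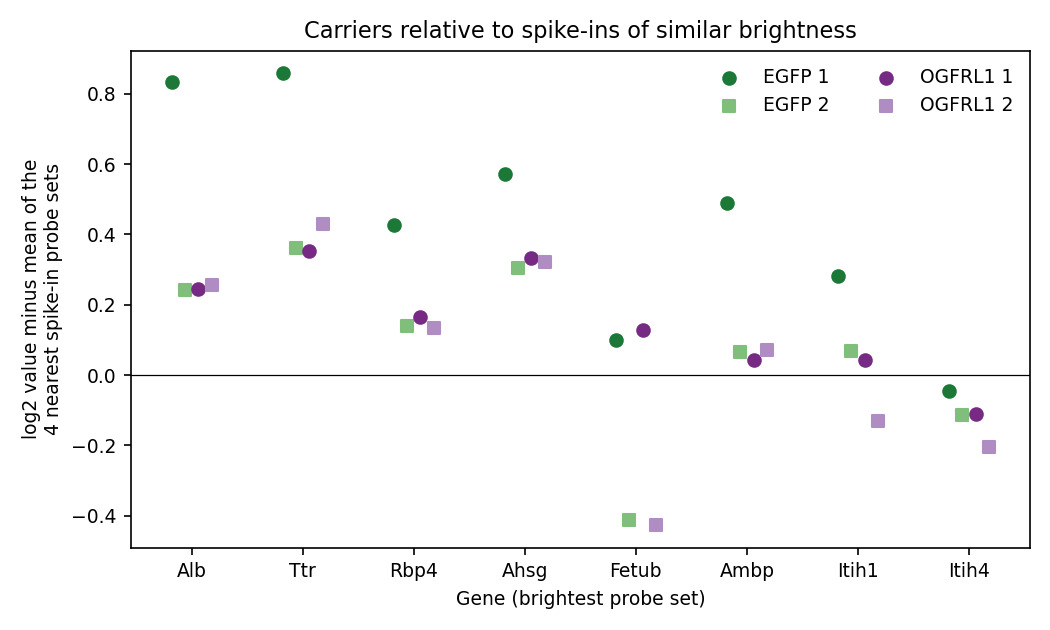
Log2 value of each carrier gene minus the mean of the 4 spike-in probe sets nearest in brightness, 1 point per array. For Alb, Ttr, Rbp4, Ahsg and Ambp, set against the Cre probe sets, the EGFP 2 array lies with the OGFRL1 arrays and EGFP 1 lies above. Itih1, set against BioD probe sets, has both OGFRL1 arrays below both EGFP arrays.

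Ranks within an array do not depend on how the array was scaled, and were added after the data were seen. Counted from the brightest probe set down, Alb ranked 4 on EGFP 1, 38 on EGFP 2, 48 on OGFRL1 1 and 32 on OGFRL1 2. Ahsg, ranked 29, 27, 28 and 25, hardly moved. The brightest probe set of Ttr, at 3, 18, 27 and 11, and Rbp4, at 39, 56, 64 and 51, overlapped between groups. Another Ttr probe set, at 16, 46, 53 and 49, did not overlap. Those at 18, 47, 56 and 41 and at 42, 29, 26 and 30 did, so the rank result for Ttr depended on the probe set. By rank 2 of the 8 genes had groups that did not overlap, against 23.5% of all genes with lower ranks in OGFRL1. These were Itih4, at 99 and 102 against 129 and 124, and Itih1, at 833 and 854 against 1145 and 1082.

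The calls for the carriers depended on which EGFP array was used. Without EGFP 2, 6 of the 8 genes passed the threshold (Alb, Ttr, Rbp4, Ahsg, Ambp and Itih4), beside 3.4% of all genes called lower in that fit. There Alb had a log2 fold change of -1.11 (limma adjusted p = 0.00562) and Ttr of -0.99 (limma adjusted p = 0.00829). Without EGFP 1 none of the 8 passed (limma, 7 at an unadjusted p under 0.05), beside 2.15% of all genes called lower, and the values drew together, with Alb at -0.32, Ttr at -0.30, Rbp4 at -0.32, Ahsg at -0.30 and Ambp at -0.33. The Cre spike-ins were at -0.33 in that comparison. Itih1 was the least dependent on it, at -0.43 without EGFP 1 and -0.49 without EGFP 2. In these fits the lone EGFP array is assumed to vary like the OGFRL1 arrays.

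Scaling had as large an effect. Quantile normalization, which gives all arrays the same distribution, brought the median of the 8 genes to -0.11, with Alb at -0.16, Ttr at -0.09, Rbp4 at -0.06 and Ahsg at 0.006. In that fit 7 of the 8 genes were below 0, against 49.6% of all genes, and none passed the threshold, against 0.0335% of all (limma, 1 of the 8, Itih1, at an unadjusted p under 0.05). Itih1 was at -0.35 ± 0.11 (limma adjusted p = 0.236). Centring each array on its Cre spike-ins brought the median to -0.12 and put Itih1 at -0.03 and Fetub at 0.20. That centring moved the median of all genes to 0.47, with 8.67% of them below 0 and 10.9% past the threshold, none of the 8 among them (limma, 0 at an unadjusted p under 0.05). With BioB, BioC and BioD in place of Cre the median of the 8 was -0.22, 13.6% of all genes were below 0 and 9.09% passed, again none of the 8 (limma, 0 at an unadjusted p under 0.05). When arrays of unlike number were taken as pairs, a choice made after the data were seen, 4 of the 8 passed, beside 3.22% of all genes called lower. Centring on spike-ins adds the same shift to every gene, and so leaves the distance between the 8 genes and the other genes as it was.

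**Figure D4:**
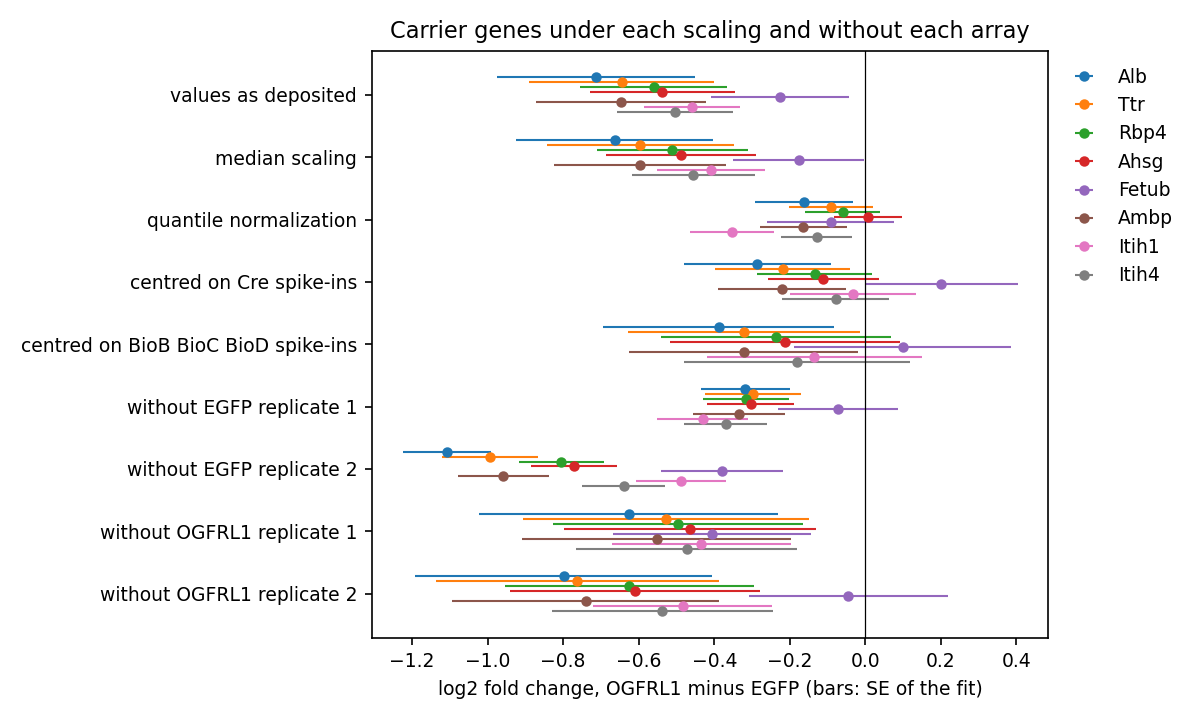
Log2 fold change (OGFRL1 minus EGFP) of the 8 carrier genes with the SE of the fit, for the deposited values, 4 other scalings and the fits that leave out 1 array. The bright carriers spread from -1.11 for Alb without EGFP 2 to near 0 after quantile normalization.

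The genes whose pattern over the 4 arrays was nearest to that of Alb, by root mean square distance of centred log2 values over 11942 genes, were Snx10 (0.03), Serpina1c, Hsd17b3, Hpx and Hp (0.04 to 0.05). Hpx and Hp encode the plasma carriers of heme and haemoglobin, and Serpina1c an antitrypsin with close paralogs, so that its gene assignment is uncertain. Hpx, for one, had 13856 and 8583 in the EGFP group against 6482 and 7141. Ttr was the next gene in this order and Ambp the ninth, and 50 genes were nearer than the brightest Cre probe set (0.13). With 4 arrays such nearness is a description only.

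Other plasma carriers and binding proteins were all lower as well. Of the 20 in this list 16 were tested, all 16 were below 0, the median was -0.53, and 0 passed the threshold over all genes (limma, 10 at an unadjusted p under 0.05). Below 0 were 15 of them without EGFP 1, 13 after quantile normalization (median -0.19) and 12 centred on Cre (median -0.11). In the Cre fit 1 of them passed, beside 10.9% of all genes, and 8.67% of all genes were below 0. Serpina6, the corticosteroid-binding globulin, had signals of 3662 and 4205 in the EGFP group and of 2078 and 1850.1 in the OGFRL1 group (-0.999 ± 0.146, limma adjusted p = 0.0523). Pon1, the paraoxonase bound to HDL, had 7402 and 5510.3 against 3119.8 and 3215.5 (-1.01 ± 0.18, limma adjusted p = 0.0684). Without EGFP 1 they were at -1.10 and -0.80, centred on Cre at -0.57 and -0.58, and after quantile normalization at -0.87 and -0.79. Azgp1 (-0.51 ± 0.15) and Apoh (-0.58 ± 0.19) were at -0.08 and -0.15 when centred on Cre.

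In the albumin family, Afp and Afm lay on opposite sides. Afp, the fetal counterpart of albumin, rose from signals of 57.5 and 85.6 in the EGFP group to 314 and 292.1 in the OGFRL1 group (log2 fold change 2.06 ± 0.21, limma adjusted p = 0.0405). It kept that direction centred on Cre (2.48) and passed the threshold there; after quantile normalization (1.97) it did not pass. Afm, a carrier of vitamin E, had 4152 and 3652 against 2685 and 2702 (-0.53 ± 0.14, limma adjusted p = 0.149).

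Beside the 8 genes, the inter-alpha-trypsin family held 6 tested members of 7, 3 higher and 3 lower, with 0 past the threshold (limma, 3 at an unadjusted p under 0.05) and a median of 0.13. Centred on Cre the median was 0.55, with 1 of 6 lower and 2 past the threshold. With BioB, BioC and BioD in place of Cre it was 0.45, again with 2 past it. The medians of all genes in these fits were 0.47 and 0.37, with 10.9% and 9.09% past the threshold. Itih5, a heavy chain found mainly outside hepatocytes, had signals of 349.6 and 327.5 against 676 and 625 (0.93 ± 0.13, limma adjusted p = 0.0513; 1.36 when centred on Cre). Itih3, another hepatocyte heavy chain, had 8292 and 6375 against 5322 and 5427 (-0.44 ± 0.17), which was -0.01 when centred on Cre. Spink1, a trypsin inhibitor, was at 0.63 ± 0.16 (1.06 when centred on Cre), and Spint2 at -0.18 ± 0.16.

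Receptors and partners of the carriers were tested for 9 of 12 genes, of which 6 were lower and 3 higher, with 0 past the threshold (limma, 4 at an unadjusted p under 0.05) and a median of -0.24. The sign of the median depended on the scaling. Centred on Cre the median was 0.18, with 2 of 9 lower and 1 past the threshold. With BioB, BioC and BioD in place of Cre it was 0.08, with 3 of 9 lower and 1 past it. The medians of all genes were higher in these fits, at 0.47 and 0.37. Of all genes 8.67% and 13.6% were below 0, and 10.9% and 9.09% passed. Tfrc, the transferrin receptor, was at 507.5 and 438 against 645 and 651 (0.46 ± 0.14, limma adjusted p = 0.205). Fcgrt, which recycles albumin, was at 668 and 609 against 496.1 and 477 (-0.39 ± 0.13), and its partner B2m at -0.49 ± 0.17. Centred on Cre these were 0.04 and -0.06. Asgr2, of the asialoglycoprotein receptor, had -0.48 ± 0.19.

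Transcription factors known to bind the albumin and carrier promoters were tested for 17 of 19 genes. Of these 11 were lower and 6 higher, 0 passed the threshold (limma, 3 at an unadjusted p under 0.05), and the median was -0.14. Cebpa had signals of 688 and 1074.9 against 525.5 and 529 (-0.70 ± 0.22, limma adjusted p = 0.209), and Hnf4a 3602 and 2932 against 2191 and 2261 (-0.55 ± 0.15, limma adjusted p = 0.171). Hlf was at -0.51 ± 0.17 and Foxa3 at -0.26 ± 0.13. After quantile normalization 13 of 17 were lower (median -0.14), and without EGFP 1 also 13 (median -0.27). Centred on Cre 3 of 17 were lower and the median of this list was 0.29, while the median of all genes was 0.47. In that fit Cebpa was at -0.28, Hnf4a at -0.12, Hlf at -0.08 and Foxa3 at 0.17. The sign of the list median thus depended on the scaling.

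The secretory pathway, which exports these proteins, held 18 tested genes of 19, with 10 lower and 8 higher. Of them 0 passed the threshold (limma, 1 at an unadjusted p under 0.05). Their median of -0.10 turned to 0.32 when centred on Cre, where the median of all genes was 0.47. Surf4, a cargo receptor, was at 0.65 ± 0.23, Sec24d at -0.38 ± 0.19, Mia3 at -0.24 ± 0.13 and P4hb at -0.32 ± 0.18.

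Hepatocyte markers other than these carriers were present at high signal, as the liver label requires: Apoa1, for one, had 15078 and 12630.0 against 9881 and 10641. Of 10 such markers 9 were lower (median -0.47), and their summed signal was 90365 and 71257 on the EGFP arrays against 56876 and 59600.0 on the OGFRL1 arrays. None of the 10 passed the threshold (limma, 6 at an unadjusted p under 0.05), and the median was -0.04 both after quantile normalization (6 of 10 lower) and centred on Cre (7 of 10 lower). Markers of stellate cells and myofibroblasts were higher for 7 of 9 (median 0.73; summed signal 4296 to 4999 in the EGFP group and 5492 to 7349.6 in the OGFRL1 group), with 0 of 9 past the threshold (limma, 5 at an unadjusted p under 0.05). Centred on Cre 9 of 9 were higher (median 1.16) and 5 passed. In that fit 8.67% of all genes were below 0, the median of all genes was 0.47 and 10.9% passed. Centred on BioB, BioC and BioD 5 of the 9 passed as well (median 1.06), beside 9.09% of all genes (median 0.37). Markers of cycling cells were higher for 5 of 5 (median 1.83; 653 to 984 against 2489 to 2984.5), and Birc5 and Rrm2 passed the threshold (limma adjusted p = 0.0364 and 0.0306). After quantile normalization 1 of the 5 passed, beside 0.0335% of all genes, and centred on Cre all 5, beside 10.9%. Markers of cholangiocytes were dim in every array, with sums of 121 to 129, and Krt7 was down to 3.8 on EGFP 1. Their part in the values of the carriers was not tested.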

How the data were processed

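Biotin-labelled cRNA from 100 ng of liver RNA per array was hybridised to 1-colour Affymetrix arrays. The deposited values are signal intensities on a linear scale from MAS5, per the submitters' processing notes, which name no version. The trimmed mean of each array was 100.0.

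The table held 45101 probe sets, 64 of them controls; 34945 had 1 gene symbol, 932 several and 9160 none. Signals were taken as log2(signal + 3.51), where the pseudocount is percentile 25 of the table, which understates fold changes of dim genes. Each gene was read by its brightest probe set and kept at a mean of at least 11.6, the median over probe sets, which left 11942 genes. They were fitted with limma 3.58.1 in R 4.3.3 (lmFit, eBayes with intensity trend, 2-sided, 2 residual and 4.48 prior degrees of freedom). The fit was tested on simulated data. The number of arrays limits the precision.

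Poly-A controls were at most 8.66 in mean signal, so spike-in comparisons used BioB, BioC, BioD and Cre. Named genes are all members, the 5 nearest to Alb in pattern, and up to 4 per list (first those past the threshold, then by moderated t) of other genes; any further gene named was chosen after its values were seen. The genes and lists were chosen with earlier results of these data known. Descriptions and plots were made with pandas 2.3.3 and numpy 2.4.6 under Python 3.11.15, and matplotlib 3.10.9. Same-numbered arrays deviated from their group means with a correlation over genes of -0.28, so numbers were not taken as pairs. A further promoter motif is not reported here.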

Additional observations from a re-analysis of the deposited data

How the results depend on the processing

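The count of genes called over the whole array, 61 with the deposited values, stayed within 1.5 times for median scaling, a floor, probe sets without a suffix and the replicate block. It was 4 after quantile normalization, 1303 centred on the Cre spike-ins, 1085 centred on BioB, BioC and BioD, 94 with 4 times the pseudocount, 21 with a stricter filter, 13 with the mean over probe sets, and 0 both with no filter and with no intensity trend (limma, 2179 and 1654 at an unadjusted p under 0.05). Leaving out 1 array, with the lone sample of a group assumed to vary like the other group, gave 0 (without OGFRL1 1; limma, 922 at an unadjusted p under 0.05) to 856 (without EGFP 2). The median log2 fold change of the 8 carrier genes, -0.55, was -0.11 after quantile normalization, -0.12 centred on Cre and -0.22 centred on BioB, BioC and BioD. It ran from -0.79 to -0.32 when 1 array was left out, with 8 of 8 genes lower each time. For the 7 genes whose groups did not overlap, leaving out 1 array could not change the direction, so this count says little. Relative to the spike-ins the median of -0.18 ran from -0.30 without EGFP 2 to 0.0094 without EGFP 1. Ahsg turned to 0.0064 after quantile normalization, and Fetub to 0.20 centred on Cre and 0.10 centred on BioB, BioC and BioD; the cause was not tested. Of 144 single values of carriers under alternatives, 131 kept direction and side of the threshold, 10 passed it newly and 3 changed sign. Direction could not change under the filter, trend and block settings, which leave the fold change of a probe set as it was. Nor does a kept direction mean a kept size: Alb went from -0.71 to -0.16 after quantile normalization. With the replicate number as a block 59 genes were called and none of the 8. The crossed pairing, chosen after seeing the data, called 934 genes, 4 of the 8 among them.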

Other observations

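Markers of Kupffer cells and macrophages did not separate the groups. Their summed signal over 7 tested genes was 8104 (EGFP 1) and 3910.3 (EGFP 2) against 4573 (OGFRL1 1) and 7220.4 (OGFRL1 2). EGFP 1 and OGFRL1 2 were thus high, and the sums overlapped (4 of 7 genes lower, 0 past the threshold by limma and 0 at an unadjusted p under 0.05, median log2 fold change -0.13). Without EGFP 1 the median was 0.53, with 2 of 7 lower. Centred on Cre it was 0.30, with 2 of 7 lower and 1 past the threshold. In the Cre fit the median of all genes was 0.47, with 8.67% below 0 and 10.9% past the threshold. Of genes chosen here after their values were seen, Cd5l, a protein secreted by macrophages, had 2005 and 755 against 953 and 1325. Vsig4, the complement receptor of Kupffer cells, had 1451 and 661 against 887 and 1344. Ptprc, the pan-leukocyte CD45, had 393 and 199 against 207 and 413. EGFP 1, the array on which Alb and the other bright carriers were highest, was thus also high in the sum of macrophage markers. OGFRL1 2 was high in that sum too, but Alb had 7930.4 there against 16107 on EGFP 1. Of the 7 markers, Cd68 and Csf1r were higher on OGFRL1 2 than on EGFP 1, and the others were lower there. Whether carriers and macrophage markers had a part in each other was not tested. Of 5 erythroid markers 2 were tested, and they did not share a pattern. Alas2, the erythroid enzyme of heme synthesis, had 247 and 375 in the EGFP group against 124 and 96.0 in the OGFRL1 group (-1.45 ± 0.24, limma adjusted p = 0.0637). Slc4a1 was dim and overlapped, with 14.8 and 23.7 against 21.4 and 9.83 (-0.29 ± 0.42, limma adjusted p = 0.798). Centred on Cre Alas2 was at -1.03 and Slc4a1 at 0.14.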
